A study of Rattus norvegicus with 4 samples.

Results

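The platelet-derived growth factor (PDGF) family of the rat was followed here in tail tendon fibroblasts given the releasate of PRP or of PPP. Its 7 members were the genes of the 4 ligand chains (Pdgfa, Pdgfb, Pdgfc and Pdgfd), of the receptors alpha and beta (Pdgfra and Pdgfrb) and of a receptor-like protein (Pdgfrl). The family was picked for study with earlier results of these data known, and its members were then found by symbol: a probe set counted if the platform's annotation gave it exactly 1 gene symbol and that symbol was a member's. All 7 had 1 such probe set each, out of 14824 probe sets with a single symbol and 36685 in all.

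The cells came from tail tendons of Lewis rats that were retired breeders, and grew inside gels of type I collagen. After 2 days with 10% fetal bovine serum, each culture received 10% clot releasate of PRP or of PPP in medium without that serum, and total RNA was taken at 24 hours. The abbreviations usually stand for platelet-rich and platelet-poor plasma, though the labels do not spell them out and say nothing of the plasma donors. There were 2 arrays per treatment and none from untreated cells, so a difference sets PRP against PPP and leaves unknown which of the treatments changed the cells. The labels do not say whether replicates were separate animals or cultures, so p-values reflect the spread among these 4 arrays alone, and that spread may be technical. Values are log2 expression on Affymetrix arrays. A level holds within a probe set and cannot be set against that of another gene. The number of arrays limits the precision.

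PDGF was named for the platelets that store it and release it on clotting. Its chains pair into dimers that bring receptor chains together and start their tyrosine kinase activity, and cells of mesenchymal origin such as fibroblasts answer by dividing and migrating. The alpha receptor binds the A, B and C chains, and the beta receptor binds the B and D chains. The arrays measure transcripts in the cultured cells, not ligand protein in the releasate.

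Of the 7 members, Pdgfrl alone passed limma's test between the treatments, and it was 1.94-fold lower with PRP. Pdgfra was 1.47-fold higher with PRP, the most positive difference of the 7, but missed the threshold. Pdgfrb and the 4 ligand genes did not pass. The threshold was an adjusted p of 0.05 (Benjamini-Hochberg over all 14824 single-symbol probe sets); 1.85% of them were called, 0.830% higher and 1.02% lower with PRP. The called members numbered 0 higher and 1 lower, against 1 higher and 2 lower at an unadjusted p under 0.05, a limit that 16.3% of all these probe sets met. With a single call among 7, the count describes Pdgfrl and not the family. The median difference of the 7 was 0.02 on the log2 scale and that of all named probe sets was -0.0027. An exact permutation test of 2 arrays against 2 cannot give a two-sided p below 0.333, so it was not used for calls.

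The promoters of Pdgfra and Pdgfa are shown because these are the members with the most positive and the most negative difference among the 5 whose promoter matched the table used. Each window is RefSeq sequence of GRCr8, from 250 bases before the annotated start to 50 after it, 5′ to 3′ on the gene's strand; capitals mark motif matches.
Pdgfra, chr14:33408467-33408766, minus strand: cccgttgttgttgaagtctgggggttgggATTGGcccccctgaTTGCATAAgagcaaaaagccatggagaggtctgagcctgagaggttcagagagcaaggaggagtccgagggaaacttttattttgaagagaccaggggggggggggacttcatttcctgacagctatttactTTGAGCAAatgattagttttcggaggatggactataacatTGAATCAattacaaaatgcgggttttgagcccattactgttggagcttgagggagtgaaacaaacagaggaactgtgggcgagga
Pdgfa, chr12:20759116-20759415, plus strand: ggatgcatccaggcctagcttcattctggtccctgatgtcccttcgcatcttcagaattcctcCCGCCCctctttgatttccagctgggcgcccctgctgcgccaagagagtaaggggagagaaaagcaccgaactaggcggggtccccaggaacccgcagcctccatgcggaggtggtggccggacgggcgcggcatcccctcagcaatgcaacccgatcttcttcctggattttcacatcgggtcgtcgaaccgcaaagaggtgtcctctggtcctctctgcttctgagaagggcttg
The motifs searched on both strands were the GC box (GGGCGG), the TATA box (TATAAA), the CCAAT box (CCAAT), the AP-1 motif (TGANTCA), the EGR motif (GCGNGGGCG), a C/EBP motif (TTGCNNAA), the CArG box and the NF-kB motif; the GC box and the EGR motif can overlap. In the Pdgfra window there were 1 CCAAT match, 1 AP-1 match and 2 C/EBP matches, and G and C made up 48% of its bases. The Pdgfa window held 1 GC box and was richer in G and C, at 60%, where the median of all 33469 windows was 51.7%. Among those windows 37.5% held a CCAAT match, 7.33% an AP-1 match, 10.6% a C/EBP match and 33.1% a GC box. The TATA box was found in 14.2% of them, the EGR motif in 4.98%, the CArG box in 1.64% and the NF-kB motif in 7.51%. A match describes the letters and is not evidence of binding.

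**Figure D1:**
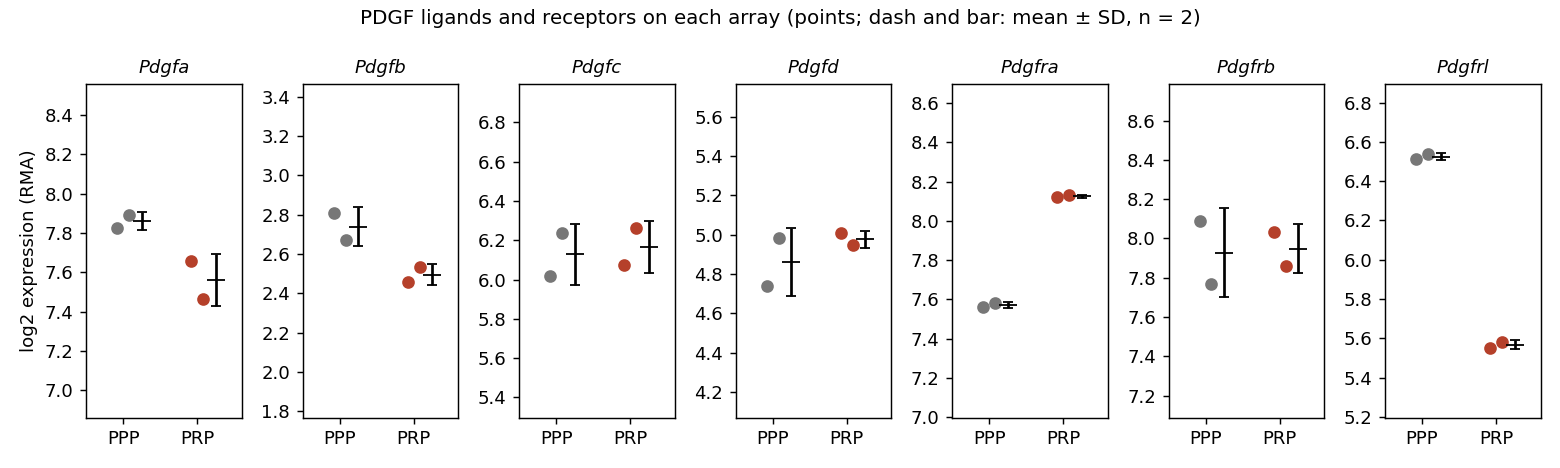
Log2 expression (vertical axis, RMA units) of each PDGF ligand and receptor gene on the 2 PPP arrays (grey points) and the 2 PRP arrays (red points), with the mean ± SD beside them; all panels span the same number of log2 units. The PRP and PPP arrays lie far apart for Pdgfra (higher with PRP) and Pdgfrl (lower with PRP) and interleave for Pdgfc, Pdgfd and Pdgfrb.

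Pdgfra encodes the alpha receptor, a tyrosine kinase that marks many mesenchymal cells. Its log2 level was 7.56 and 7.58 on the 2 PPP arrays and 8.12 and 8.13 on the 2 PRP arrays. Both PRP arrays were above both PPP arrays, and the gap within each treatment was at most 0.02. The difference was 0.55 (SE 0.10, 95% interval 0.30 to 0.81) and the adjusted p was 0.0713 by limma. That SE is large beside the gap within each treatment because limma pools each gene's variance with that of the other probe sets. Only 320 of the 14824 named probe sets had a more positive difference. The smallest difference of any called probe set was 0.64 in size, which is larger than that of Pdgfra. Whether Pdgfra passed depended on the fit. It passed with an intensity trend in limma (adjusted p 0.00354, where 5.45% of named probe sets were called), with dim probe sets left out (0.0179, where 8.77% were called) and narrowly with the arrays centred on their medians (0.0498, where 2.52% were called). It did not pass after cyclic loess (0.0842, where 2.14% were called), with the replicate number as a block (0.157), with all 36685 probe sets fitted (0.277) or with any 1 array left out (0.156 to 0.346).

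Pdgfrb encodes the beta receptor, which pericytes and smooth muscle cells also carry. Its level was 8.09 and 7.77 on the PPP arrays and 8.03 and 7.86 on the PRP arrays. The treatments overlapped, and the gap of 0.32 between the PPP arrays was far larger than the difference of 0.02 (SE 0.15; 95% interval -0.34 to 0.38; adjusted p 0.972 by limma). That interval still allows a modest change either way. The sign of the difference turned after cyclic loess (-0.03) and with PPP replicate 2 (-0.14) or PRP replicate 1 (-0.07) left out.

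The balance of the receptor messages was followed as log2 Pdgfra minus log2 Pdgfrb on each array. This quantity stays as it is if the same amount is added to all log2 values of an array. It was -0.53 and -0.19 with PPP and 0.08 and 0.27 with PRP. Both PRP arrays were above both PPP arrays. The mean moved by 0.53 toward Pdgfra, from -0.36 ± 0.24 to 0.18 ± 0.13 (SD, n = 2 each). An exact permutation test gave a two-sided p of 0.333, the smallest that 2 arrays against 2 can give. It is a change in a ratio, and its level does not say which message was more abundant. The change is made of the differences of 0.55 in Pdgfra and 0.02 in Pdgfrb, so it is no finding apart from them.

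Pdgfrl encodes a protein that resembles the ligand-binding part of the PDGF receptors and lacks the kinase. Its level was 6.51 and 6.54 with PPP and 5.55 and 5.58 with PRP. All PRP values lay below all PPP values, and the arrays of a treatment differed by at most 0.03. Pdgfrl fell by 0.96 on the log2 scale (SE 0.10; 95% interval -1.21 to -0.70; adjusted p 0.0135 by limma). Only 109 of the 14824 named probe sets had a more negative difference. With any 1 array left out the difference stayed between -0.97 and -0.94 while the call was lost, with adjusted p from 0.0848 to 0.119 in fits with 1 residual degree of freedom. The call was also lost with the replicate number as a block (adjusted p 0.0577, where 0.830% were called) and when all 36685 probe sets were fitted (0.136, where 0.00545% were called). In these bulk cultures, fewer cells that express a gene and less RNA per cell cannot be told apart.

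**Figure D2:**
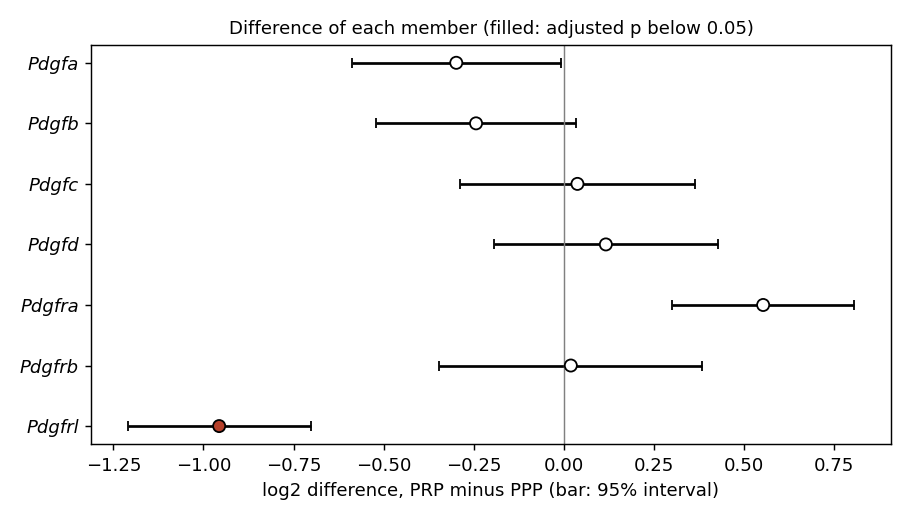
Log2 difference between PRP and PPP (horizontal axis) of each member, as a point with its 95% interval from limma; the filled point passed an adjusted p of 0.05. Pdgfrl lies near -0.96 and Pdgfra near 0.55, while the intervals of Pdgfb, Pdgfc, Pdgfd and Pdgfrb include 0.

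Among the ligands, Pdgfa and Pdgfb had lower values with PRP on both arrays, and neither passed. Pdgfa encodes the A chain, which acts through the alpha receptor. Its level was 7.83 and 7.89 with PPP and 7.66 and 7.47 with PRP. The treatments did not overlap, but the gap of 0.19 between the PRP arrays was large beside the difference of -0.30 (SE 0.12; 95% interval -0.59 to -0.01; adjusted p 0.296 by limma). Pdgfb encodes the B chain, which binds both receptors. Its level was 2.81 and 2.67 with PPP and 2.46 and 2.53 with PRP, again without overlap. The difference was -0.24 (SE 0.11; 95% interval -0.52 to 0.03; adjusted p 0.362). No detection call was used, so its level could not be told from background.

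Pdgfc and Pdgfd encode the C and D chains, which are secreted in a latent form and become active after proteases remove an outer domain. Pdgfc was at 6.02 and 6.24 with PPP and at 6.07 and 6.26 with PRP. The values interleaved, and each treatment spanned about as much as the other. Its difference was 0.04 (SE 0.13; 95% interval -0.29 to 0.36; adjusted p 0.930 by limma), and it turned to -0.03 after cyclic loess, to -0.07 without PPP replicate 1 and to -0.06 without PRP replicate 2. Pdgfd was at 4.74 and 4.98 with PPP and at 5.01 and 4.95 with PRP. The lower PPP array stood apart from the other three, which lay close together. The difference was 0.12 (SE 0.13; 95% interval -0.19 to 0.43; adjusted p 0.712), and it came to -0.01 without PPP replicate 1.

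Over the family, the arrays of the treatments did not overlap in 4 of the 7 members: 1 was higher with PRP and 3 were lower. That share is near the background, since 46.4% of all named probe sets did not overlap either. The spread within a treatment differed between members: it was at most 0.03 for Pdgfra and Pdgfrl and reached 0.32 for Pdgfrb.

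**Figure D3:**
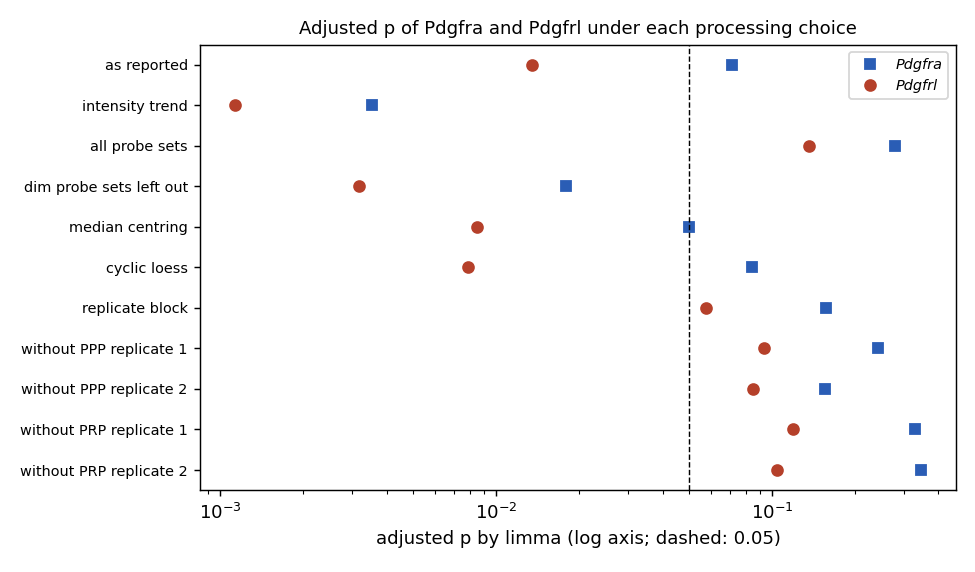
Adjusted p by limma (horizontal log axis; the dashed line is 0.05) of Pdgfra (blue squares) and Pdgfrl (red circles) as reported and under each other processing choice. Pdgfrl lies below the line in 5 of 11 fits and Pdgfra in 3 of 11.

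The genes whose values over the 4 arrays ran most like those of Pdgfra were Fbn2, the microfibril protein fibrillin-2, Ndufaf6, an assembly factor of mitochondrial complex I, and Kitlg, the ligand of the receptor Kit. Likeness was the root mean square distance between log2 values after each gene's own mean over the arrays was removed, and it came to 0.0113 for Fbn2, 0.0124 for Ndufaf6 and 0.0213 for Kitlg. Within a distance of 0.1 of Pdgfra there were 329 probe sets. Those most like Pdgfrl were Cav2, the membrane protein caveolin-2, at 0.0350, Sbspon, a secreted protein, at 0.0352, and Fbxw7, the substrate-binding part of a ubiquitin ligase, at 0.0510 (36 probe sets lay within 0.1). Of these, Cav2 fell by 0.96, Sbspon by 1.00 and Fbxw7 by 0.86 on the log2 scale (adjusted p 0.0141, 0.0127 and 0.0194 by limma). The genes most like Pdgfra did not pass (0.0720 for Fbn2, 0.0755 for Ndufaf6 and 0.0655 for Kitlg). Each gene was picked for its likeness to a member, so a difference and p near that member's follow from the choice.

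Genes of proteins that process or bind the ligands were read next. For this list and those below, the background over all named probe sets was 1.85% called and 16.3% with an unadjusted p under 0.05. Measured were 9 of the 14 listed genes. Of these 0 rose, 1 fell and 8 did not pass by limma (0 higher and 1 lower at an unadjusted p under 0.05), with a median log2 difference of -0.04. Nrp1, the co-receptor neuropilin-1, was the one that fell. It stood at 6.53 and 6.37 with PPP and at 5.46 and 5.50 with PRP. Both PRP arrays were far below both PPP arrays, and the message was 1.96-fold lower (log2 difference -0.97, SE 0.11, adjusted p 0.0166). That call did not hold when an array was left out (0.0708 to 0.141). Plat, the tissue plasminogen activator that can activate the C chain, had a difference of 0.23 (adjusted p 0.415). Plau, the urokinase that can activate the D chain, had a difference of 0.24 (adjusted p 0.348).

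None of the measured genes for proteins that carry the signal from the receptors passed. Limma called 0 of 21 measured genes of the 33 listed, while 5 were higher and 0 lower at an unadjusted p under 0.05. Their differences ran from -0.15 to 0.59 with a median of 0.04. Pik3cb, a catalytic subunit of phosphoinositide 3-kinase, was at 6.08 and 5.78 with PPP and at 6.61 and 6.43 with PRP. Its difference was 0.59 (SE 0.14, adjusted p 0.135 by limma). Shc1, an adaptor that links receptors to Ras, had a difference of 0.41 (SE 0.11, adjusted p 0.155). With an intensity trend in limma, Shc1 (adjusted p 0.0164) and Pik3cb (0.0369) passed as higher. With dim probe sets left out Shc1 passed (0.0476) and Pik3cb did not (0.0521).

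Genes of proteins that attenuate the receptors did not pass either, with 0 of 8 measured genes of the 14 listed called by limma. At an unadjusted p under 0.05, 0 were higher and 1 lower, and the median was 0.01. Grb10, an adaptor that binds growth factor receptors, was at 8.06 and 8.003 with PPP and at 7.57 and 7.36 with PRP. Its values with PRP were all below those with PPP, and the difference was -0.57 (SE 0.12, adjusted p 0.102). Grb10 passed as lower with an intensity trend in limma (adjusted p 0.00957) or with dim probe sets left out (0.0318). Ptpn12, a tyrosine phosphatase, had a difference of 0.23 (adjusted p 0.437).

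Of 18 measured genes known to be induced by PDGF in cultured fibroblasts, out of 22 listed, 5 rose, 0 fell and 13 did not pass by limma (8 higher and 3 lower at an unadjusted p under 0.05, the lower ones being Egr1, Fos and Odc1). The list was written with the rises of several of them in these data already known, and other stimuli induce the same genes, so the count is no independent evidence of a response to PDGF. Cxcl1, a neutrophil chemokine, rose from 4.98 ± 0.04 to 9.36 ± 0.02 (SD, n = 2 each; adjusted p 2.43e-04). Ccl7 and Ccl2, which draw monocytes, were 3.88-fold and 3.30-fold higher, and Ptgs2, the inducible cyclooxygenase, was 3.69-fold higher, each with an adjusted p of 0.00271. Fosl1, a subunit of the AP-1 transcription factor, was 1.87-fold higher (adjusted p 0.0242), and leaving out any array ended that call (0.103 to 0.182). Other genes of the early response did not pass at the time when RNA was taken. No earlier time was sampled, so whether they had changed before then was not tested. Egr1, an early transcription factor, was at 8.38 and 8.02 with PPP and at 7.57 and 7.41 with PRP, a difference of -0.71 (SE 0.15, adjusted p 0.108). Slc20a1, a phosphate transporter, had a difference of 0.47 (SE 0.12, adjusted p 0.143). With an intensity trend or with dim probe sets left out, Egr1 passed as lower and Slc20a1 as higher with PRP. The median of the list was 0.14.

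**Figure D4:**
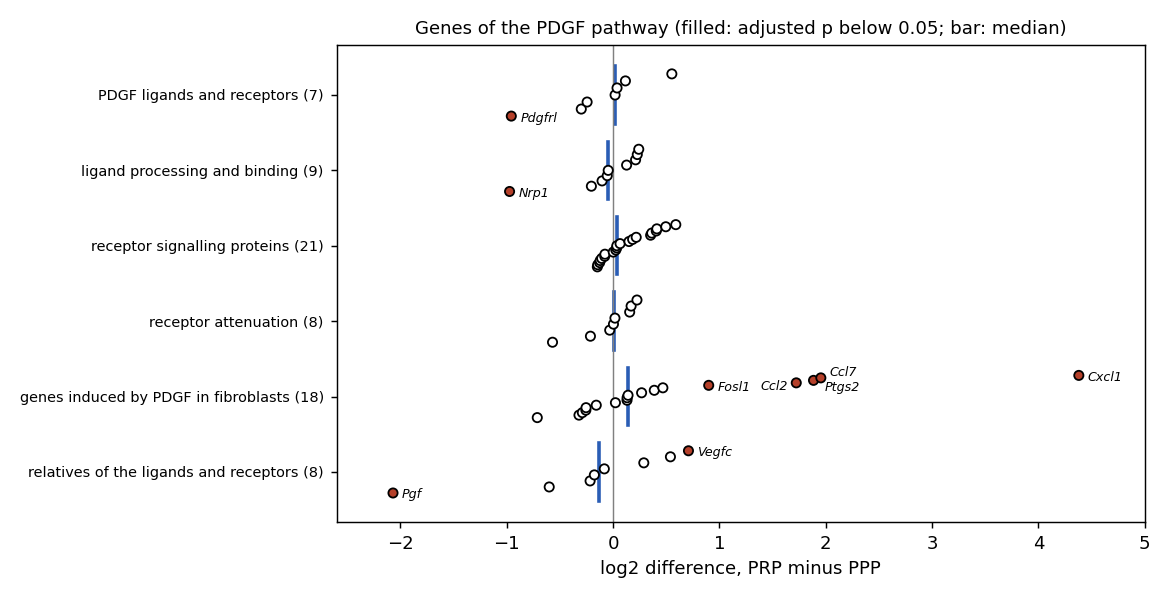
Log2 difference between PRP and PPP (horizontal axis) of each measured gene (circles) of the PDGF family and of the lists around it, with the number of genes in brackets, the median as a blue bar, and filled, named circles for an adjusted p below 0.05 by limma. The called genes outside the family are Nrp1 and Pgf on the left and Vegfc, Fosl1, Ccl2, Ptgs2, Ccl7 and Cxcl1 on the right.

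Relatives of the ligands and receptors, which share the fold of the ligands or the build of the receptor kinases, went both ways: of 8 measured genes of 11 listed, 1 rose, 1 fell and 6 did not pass by limma (2 higher and 2 lower at an unadjusted p under 0.05; median -0.13). Pgf, placental growth factor, was at 5.55 and 5.44 with PPP and at 3.37 and 3.48 with PRP, and was 4.20-fold lower (adjusted p 0.00271 by limma). Vegfc, a lymphatic growth factor, was 1.64-fold higher (adjusted p 0.0379), a call that ended whichever array was left out (0.122 to 0.259). Kit, a receptor kinase of the same class as the PDGF receptors, had a difference of -0.60 (adjusted p 0.101), and Flt4, a receptor of Vegfc, one of 0.54 (adjusted p 0.143).

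The labelled cell type was set beside marker genes, whose levels show neither presence nor absence without a detection call. Over all named probe sets limma called 1.85%, and 16.3% had an unadjusted p under 0.05. Of 13 measured fibroblast and tendon markers 2 fell, 0 rose and 11 did not pass by limma (1 higher and 7 lower at an unadjusted p under 0.05), with a median of -0.39. The summed log2 level of these markers was 112.6 to 113.0 with PPP and 107.1 to 107.3 with PRP. The fallen genes were Fmod, a proteoglycan that binds collagen fibrils, and Tnmd, a tendon membrane protein, with differences of -2.43 and -1.36. Tnmd lost its call without PPP replicate 1 (adjusted p 0.0737), PPP replicate 2 (0.0742) or PRP replicate 2 (0.0651). Of 7 measured mural cell markers, Mcam, an adhesion molecule, was the 1 that fell, with a difference of -1.27 (adjusted p 0.00722 by limma), against 0 higher and 3 lower at an unadjusted p under 0.05. Its call ended without PPP replicate 1 (0.0718), PPP replicate 2 (0.0618) or PRP replicate 2 (0.0678), which leaves 0 called. Kcnj8, a potassium channel subunit, had the next smallest p, with a difference of -0.47 (adjusted p 0.114). The median of the list was -0.27 and its summed log2 level was 30.2 to 30.4 with PPP and 27.8 to 27.97 with PRP. Since the beta receptor is also a mural marker, this stands beside its difference of 0.02, and its part there was not tested. Among 8 endothelial and 10 macrophage and leukocyte markers limma called 0 (1 higher and 1 lower, and 1 higher and 2 lower, at an unadjusted p under 0.05). Their medians were 0.02 and -0.09. The summed levels were 23.5 to 23.6 and 31.6 to 32.9 with PPP, and 23.7 to 24.5 and 30.6 to 31.0 with PRP. The smallest p values were those of Tek, an endothelial receptor (0.68, adjusted p 0.122), Esam (-0.48, 0.226), Tyrobp, a myeloid adaptor (-0.87, 0.0559), and the complement gene C1qa (-0.59, 0.133). Cd14 was the 1 macrophage and leukocyte marker counted as higher (0.39, adjusted p 0.301 by limma). In other limma fits Tyrobp passed as lower, with an intensity trend (adjusted p 0.0271), median centring (0.0280) or cyclic loess (0.0376). Tek passed as higher with dim probe sets left out (0.0467). Of 6 platelet markers (1 higher and 0 lower at an unadjusted p under 0.05), Pf4, platelet factor 4, rose by 1.85 (adjusted p 0.00398), while Gp1ba, a platelet glycoprotein, had a difference of -0.13 (adjusted p 0.663). That list had a median of -0.05, and its summed level was 21.2 to 21.9 with PPP and 22.8 to 23.7 with PRP. Pf4 is part of that sum, and the differences of the other measured platelet markers ran only from -0.16 to 0.24. RMA values never reach 0, so no marker can be called absent.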

How the data were processed

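The submitters' processing notes name oligo, RMA and limma without versions or roles. The deposited log2 values have the form RMA gives (background correction, equalised distributions, a summary per probe set). They ran from 0.861 to 12.3, and sorted values differed between arrays by at most 0.304. The array medians over single-symbol probe sets were 4.14 and 4.12 with PPP and 4.07 and 4.12 with PRP. Biotin-labelled cDNA was made from 15 ng of RNA, per the labels' protocols. The authors' genome build is not given in the sources used here. RMA hides any change in total RNA, and no detection call was used here.

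The treatments were compared in R 4.3.3 with limma 3.58.1 (lmFit, eBayes, no trend, no filter, two-sided; 2 residual and 3.87 prior degrees of freedom) over 14824 single-symbol probe sets. Another 829 had several symbols and 21032 none. Of the 14824, 14670 matched the GRCr8 gene table by Entrez identifier. Folds are 2 to the power of log2 differences, and intervals use limma's moderated SE. That SE, and the p-values, combine a gene's own variance with the variance over all fitted probe sets. A listed gene with several probe sets was read from the one with the highest mean. Named were all members, and up to 6 called genes and the next 2 by p of each pathway list. Of each marker list, the 2 genes of smallest p and all calls were named. So were the 3 genes most like each of 2 members. Fos, Odc1 and Cd14 were added after their values were seen. The members and lists were chosen with earlier results of these data known. Alternatives are in the closing section.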

Additional observations from a re-analysis of the deposited data

How the results depend on the processing

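With 274 probe sets called as reported, the count was 808 with an intensity trend, 650 with dim probe sets left out (7412 tested), 374 with median centring, 317 after cyclic loess, 123 with a replicate block, 2 with all probe sets fitted and 56 to 81 with 1 array left out. Members called were 2 with the trend, without dim probe sets (Pdgfb then had no value) or with centring, 0 with the block, with all probe sets or with any 1 array left out, against 1 as reported. Pdgfra then passed at a difference of 0.55 (trend, dim probe sets left out) or 0.59 (centring). Pdgfrl missed at -0.96 with the block or all probe sets and at -0.97 to -0.94 with 1 array left out. Differences near 0 turned sign: after cyclic loess Pdgfc came to -0.0346 and Pdgfrb to -0.0342, and with 1 array left out Pdgfc ran from -0.0720 to 0.15, Pdgfd from -0.00576 to 0.24 and Pdgfrb from -0.14 to 0.18. Among ligand processing genes the call of Nrp1 went to 0 with the block, with all probe sets or with 1 array left out. Signalling proteins went from 0 to 2 with the trend and 1 without dim probe sets, and attenuators from 0 to 1 with either. PDGF-induced genes went from 5 to 1 and relatives from 2 to 0 with all probe sets. With the block PDGF-induced genes went to 4 and relatives to 1. PDGF-induced genes went to 7 with the trend and to 7 without dim probe sets. In those fits Egr1 was called lower with PRP (-0.71, adjusted p by limma 0.0121 and 0.0401). Slc20a1 was called higher (0.47, 0.0280 and 0.0491). The causes of these moves were not tested, except that leaving out an array leaves fewer arrays; the lone array of a treatment was then assumed to vary like the other treatment's. Centring shifted every difference by 0.04. Replicate numbers are shared between treatments, but nothing in the labels says that they pair arrays, and same-numbered arrays deviated from their treatment means with a correlation of 0.00564 across probe sets.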
